A study of Homo sapiens with 6 samples.

Results

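The genes described here encode actins, the proteins that assemble, cap and crosslink actin filaments, the myosins that pull on them, and the tropomyosins and troponins that lie along them. They were taken by name from a pair of deposited lists, called genes of high and of low expression. The symbols had to begin with ARPC, CAPZ, TMOD or LMOD, with MYH, MYL, MYO, TPM, CFL or PFN and a digit, or with a stem and a set letter. The stems were ACT followed by A, B, C, G, N, R or L, TNN followed by C, I or T, and the stem of the filamin genes with its letter. Of 8942 symbols that stood on a single list, 71 met this rule, 45 as genes of high expression and 26 as genes of low expression. The high list held 63.4% of these 71, against 50.6% of all listed symbols. Among coding genes alone the share was 63.8% of members, against 54.1% of all listed genes. In the actin, myosin, tropomyosin and troponin genes without the other proteins it was 52.8%, close to the share of all listed symbols.

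The study compared SiHa cells that had migrated through a transwell membrane with cells that had not, 10 hours after seeding, with 3 libraries of each fraction. SiHa is a single established line from a squamous cell carcinoma of the cervix, and the labels give no other treatment for either fraction. The series title ties migration to a Suv39H1-low state of chromatin. The 6 libraries held 18226280 to 33466924 assigned fragments over 26006 loci, each known by an assembly ID. None of these IDs is a listed symbol, so no member could be given a level or a fold change in migrated against non-migrated cells. The lists carry symbols and hg19 positions and 0 expression values. How the authors drew them up, and from which libraries, is not stated in the labels or headers. They were therefore read as lists of level, with nothing to say on change between the fractions.

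Actin monomers join into filaments that push the cell edge forward where the ARP2/3 complex branches them, and that pull where bipolar filaments of myosin II slide along them. Non-muscle forms of these proteins serve movement, division and adhesion in most cells. Skeletal, cardiac and smooth muscle use forms of their own, often made from separate genes. In skeletal and cardiac muscle troponin and tropomyosin gate the access of myosin to actin. Sperm cells make a further set of actin-like and capping proteins from genes of their own.

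By this division the lists parted almost completely. The classes rest on textbook roles, which include the tissues where a gene is known to be used, so they are not independent of expression. Their borders are uneven, since PFN2, prominent in neurons, was counted as non-muscle and the neuronal TMOD2 and ACTL6B as restricted. All 40 listed non-muscle members were on the high list. Of 17 listed muscle members 16 stood on the low list, and the exception on the high list was CFL2, the muscle form of cofilin. The 7 listed testis members and both listed members of restricted tissues, MYO3A of sensory cells and MYL10, were on the low list. Of the tropomyosin genes that make muscle and non-muscle forms from the same gene, TPM2 and TPM3 were on the high list. Outside these classes stood the readthrough transcript ARPC4-TTLL3, which was high, and the antisense gene MYO16-AS2, which was low.

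A RefSeq table of the human genome holds 126 coding genes whose symbols meet the rule, of which 44 were high, 25 low and 57 on neither list. That is 34.9% high and 19.8% low, against 4239 (21.1%) high and 3617 low of all 20056 RefSeq coding symbols, matched by current symbol alone. Among non-muscle genes 40 of 52 were high and 12 were on neither list. Among muscle genes 1 of 36 was high, 16 were low and 19 were on neither. Testis genes gave 7 low and 4 on neither list of 11, and restricted genes 2 low and 13 on neither of 15. All 5 smooth muscle genes were on neither list. They are ACTA2 and ACTG2, the smooth muscle actins, MYH11 and MYL9, a heavy and a light chain of its myosin, and LMOD1, a filament nucleator. The files do not say what absence from both lists means.

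**Figure D1:**
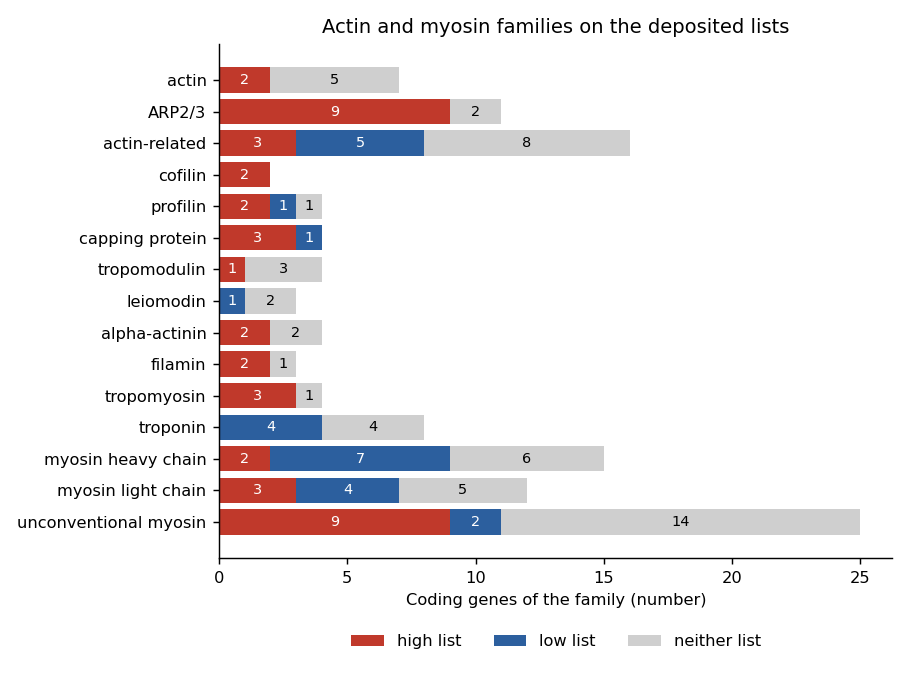
Number of coding genes of each family on the high list (red), the low list (blue) and neither list (grey), for 15 families ordered from actin to the unconventional myosins. The ARP2/3 bar holds 9 high and 0 low genes, the troponin bar 0 high and 4 low genes, and the myosin heavy chain bar 2 high and 7 low genes.

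Both cytoplasmic actins were on the high list. ACTB, beta-actin, lies on hg19 chromosome 7 from 5566782 to 5603415, and ACTG1, gamma-actin, on chromosome 17 from 79476999 to 79479827, a span of 2.83 kb that was the shortest among the high members. The other 5 actin genes were on neither list, including ACTA1 of skeletal and ACTC1 of cardiac muscle, so the muscle actins were not among the low genes. The coding sequences of ACTB and ACTG1 were identical at 91.2% of 1128 aligned bases, and 0.927% of the windows of 50 bases in either occurred unchanged in the other.

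Every subunit of the ARP2/3 complex, which starts a new filament as a branch on an old one, was on the high list in at least 1 form. They are the actin-like pair ACTR2 and ACTR3, ARPC2, ARPC3 and ARPC4, and both forms of the remaining subunits, ARPC1A with ARPC1B and ARPC5 with ARPC5L. ACTR3B and ACTR3C, further relatives of ACTR3, were on neither list. The spans of ARPC1A and ARPC1B overlap by 13916 bases on chromosome 7 on the same strand, and ARPC4-TTLL3 shares 13992 bases with ARPC4. The coding sequences of ARPC1A and ARPC1B shared 0 windows of 50 bases, and their other parts were not compared. The strand setting and gene models of the counting are not given, so how fragments from the overlapping spans were assigned is not known.

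The actin-related proteins outside ARP2/3 split by where they act. ACTR1A and ACTR10, parts of the dynactin complex that couples cargo to dynein, and ACTL6A, a subunit of chromatin remodellers, were high. ACTRT1, ACTRT2, ACTL7A, ACTL7B and ACTL9, actin-like proteins of sperm, were low. The second dynactin form ACTR1B, the remodeller subunits ACTR5, ACTR6 and ACTR8, and the neuronal remodeller subunit ACTL6B were on neither list. The testis genes ACTL8, ACTL10 and ACTRT3 were also on neither list.

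Of 17 genes that control the ends and the turnover of filaments, 8 were high, 3 low and 6 on neither list. CFL1, the cofilin of non-muscle cells that severs old filaments, lies on chromosome 11 from 65622272 to 65629497. CFL2, its muscle relative, lies on chromosome 14 from 35179593 to 35183896, and the coding sequences of both were identical at 70.1% of 501 aligned bases. Their coding sequences share 0 windows of 50 bases, while the untranslated parts were not compared. PFN1 and PFN2, which bind actin monomers and feed them to growing ends, were high, while the testis profilin PFN3 was low. CAPZA1, CAPZA2 and CAPZB, which cap the fast-growing end, were high, while the sperm subunit CAPZA3 was low. TMOD3, the widely made cap of the slow-growing end, was high, and TMOD1, TMOD2 and TMOD4 of heart, neurons and skeletal muscle were on neither list. LMOD2, a nucleator of heart muscle, was low, and LMOD1, LMOD3 and the testis profilin PFN4 were on neither list.

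Crosslinkers on the lists were all high. ACTN1 and ACTN4, the non-muscle alpha-actinins of stress fibres, and FLNA, a widely made filamin, were high, while the muscle genes ACTN2, ACTN3 and FLNC were on neither list.

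The heavy chains of myosin II, its motor subunits, divided by class. MYH9 (hg19 chromosome 22, 36677323 to 36784063) and MYH10 (chromosome 17, 8377523 to 8534079), the heavy chains of non-muscle myosins IIA and IIB, were high. The low list held MYH1, MYH2 and MYH4 of adult fast muscle, MYH8 of the perinatal period, MYH13 of eye muscles, and MYH6 and MYH7 of the heart. MYH14 of non-muscle myosin IIC, MYH3 of the embryo, MYH7B, MYH11, MYH15 and MYH16 were on neither list. Light chains followed the same line, with MYL6, the essential chain of non-muscle myosin, and MYL12A and MYL12B, its regulatory chains, on the high list. MYL1 of fast muscle, MYL2 and MYL3 of the ventricle, and MYL10 were low. Of 12 light chain genes 5 were on neither list, the non-muscle MYL6B, the muscle genes MYL4, MYL5 and MYL7, and MYL9.

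Of the unconventional myosins, which carry cargo or tether membranes, 9 were high and 2 low. The high genes included MYO1C and MYO1E of class I, MYO5A and MYO5B, which move vesicles, MYO10 of filopodia, MYO9B, MYO18A and the mitochondrial MYO19. MYO18B, the striated muscle relative of MYO18A, was low, and so was MYO3A. A further 14 were on neither list, including the widely made MYO1D, MYO6 and MYO9A and the hair cell myosins MYO7A and MYO15A.

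The proteins that lie along the filament divided by family. TPM2, TPM3 and TPM4, tropomyosins that stabilise filaments, were high, and TPM1 was on neither list. No troponin was high, and the low list held TNNI1 and TNNI2, which inhibit contraction in slow and fast muscle, TNNT2 of the heart and TNNT3 of fast muscle. TNNC1, TNNC2, TNNI3 and TNNT1 were on neither list.

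The principal coding sequences of members, taken from GENCODE 29, were aligned within families. The median identity was 68.9% over 24 pairs on the high list, 75.3% over 43 pairs on the low list and 59.0% over 47 pairs with 1 gene on each. Of the 43 low pairs 21 were of myosin heavy chains, so these medians depend on which families were listed. Some pairs joined unlike proteins, such as TNNI1 and TNNT2, identical at 65.9% of aligned bases but 42.6% of the longer sequence. The 14 pairs of myosin heavy chains with 1 gene on each list were identical at 58.8 to 62.3% of aligned bases. The 21 pairs of low heavy chains were identical at 74.7 to 91.1%, and MYH9 and MYH10 at 73.6%. An unbroken run of 50 bases was shared by 3 high pairs, 11 low pairs and 0 of the 47 pairs across the lists, and read length is not given. The closest pair was MYL12A and MYL12B, identical at 95.7% of 516 bases with 15.8% of the 50-base windows of MYL12A shared, so the fragments of this pair could be split between them. MYH6 and MYH7 were identical at 91.1% and MYH1 and MYH2 at 91.1%. The same division of isoforms stands behind the classes, so these values describe the genes.

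Low members often lay side by side. The 5 genes MYH13, MYH8, MYH4, MYH1 and MYH2 occupy 249 kb of hg19 chromosome 17, from 10204183 to 10453274, with 0 other listed genes among them. The listed span of MYH2 contains all 26.2 kb of MYH1 and overlaps MYH4 by 4.11 kb on the same strand. On the same chromosome the high gene MYH10 ends 1.67 Mb before MYH13 begins. MYH6 and MYH7 lie 4.46 kb apart on chromosome 14, TNNT2 and TNNI1 26005 bases apart on chromosome 1, TNNI2 and TNNT3 77.9 kb apart on chromosome 11, and ACTL7B and ACTL7A 5.36 kb apart on chromosome 9. The high pair MYL12A and MYL12B lies 5.67 kb apart on chromosome 18.

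For 40 of 45 high members and 21 of 26 low members, 88.9% and 80.8%, the nearest listed gene was on the same list. Over all listed genes these shares were 76.2% and 72.7%, so much of this holds for listed genes in general. The shares of members include members nearest to each other, such as MYH1 with MYH2 and ARPC1A with ARPC1B. Shares without such neighbours were not worked out. Close neighbours on opposite lists included the low gene LMOD2, 17.6 kb from WASL, which activates ARP2/3 and was high. The low gene ACTL7A lay 3.76 kb from the high gene IKBKAP, and the high gene CFL1 1.10 kb from the low gene SNX32. Some high members had another high gene of the actin system next to them. FSCN1, which bundles filaments in protrusions, was the nearest listed gene to ACTB at 29023 bases, and TLN1, which ties integrins to actin, the nearest to TPM2 at 5.93 kb.

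In gene structure the testis members stood apart, while the spans of high non-muscle members (2.83 to 372 kb) and low muscle members (2.69 to 288.9 kb) overlapped widely. The median hg19 span was 41.7 kb for the 40 high non-muscle members, 25.6 kb for the 16 low muscle members and 1.42 kb for the 7 low testis members. Over all listed symbols it was 33.2 kb for high and 10.9 kb for low genes. All 7 testis members, ACTL7A, ACTL7B, ACTL9, ACTRT1, ACTRT2, CAPZA3 and PFN3, have a single exon in their principal coding transcript. That was so of 0 of 44 high members and of the remaining 18 low members with a coding transcript in GENCODE 29. Over all listed genes with such a transcript, 1.23% of the high and 18.6% of the low list had a single exon. Their coding sequences were about as long as those of their listed relatives. CAPZA3 codes over 900 bases and CAPZA1 and CAPZA2 over 861 each, PFN3 over 414 and PFN1 over 423, and ACTRT1 over 1131 and ACTR1A over 1131. Among the 16 low muscle members the 7 heavy chains had 38 to 41 exons and MYO18B 44, while the others had 3 to 16. High non-muscle members had 3 to 48 exons with a median of 10, against medians of 11 for all listed high and 5 for all listed low genes.

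**Figure D2:**
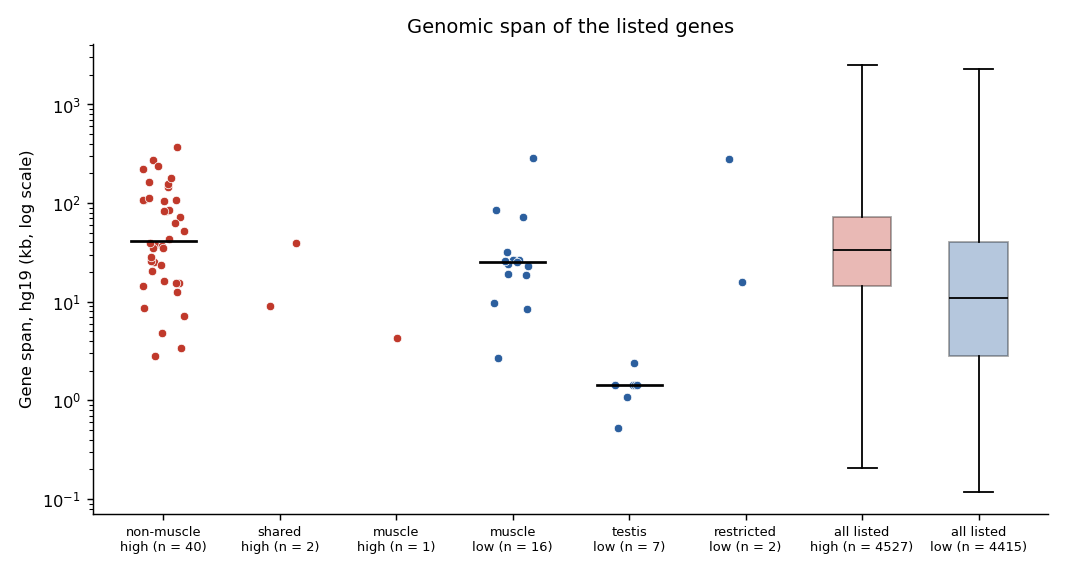
Genomic span in hg19 (kb, log scale) of each listed member by class and list, beside boxes for all listed symbols (median, quartiles, whiskers to the lowest and highest value). Horizontal bars mark medians, with the testis members at 1.42 kb below the low muscle members at 25.6 kb and the high non-muscle members at 41.7 kb.

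The sequence around the gene start, which the naming rule did not use, was compared next. RefSeq gives 300 bases for each start in GRCh38.p14, 250 upstream and 50 downstream. Of the 71 members 54 matched by symbol, with the outermost start taken where a gene had several. Those without a start included the high genes ACTB, ACTL6A, ACTR10, ARPC1B and PFN2. On the low list they included MYH7, MYL2, MYL10, MYO18B, PFN3, TNNI1, TNNI2 and TNNT3. All values and counts on starts leave these genes out. CpG content is given as the number of CG dinucleotides over the number that the C and G content predicts. CpG-rich starts are common in genes used by most tissues, and CpG-poor starts in genes of specialised tissues. The median ratio was 0.845 in the 37 high members and 0.205 in the 17 low members. Over all listed symbols with a start it was 0.880 for high and 0.290 for low genes, so the members followed their lists. A ratio of at least 0.6 was found in 34 of 37 high members (91.9%) and 2 of 17 low members (11.8%), against 90.0% and 25.7% over all listed symbols.

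Within the low list, muscle members had a median of 0.205 and testis members of 0.172. The lowest values were 0.0644 at ACTRT1 and 0.0794 at MYH4. The 2 low members above 0.6 were MYL3 at 0.876 and MYO3A at 0.786. MYL3 has a second, inner start with a ratio of 0.269, so its value depends on the start chosen. On the high list the values below 0.6 were 0.221 at MYO1C, 0.406 at TPM4 and 0.597 at MYL6. MYO1C and TPM4 have inner starts at 0.952 and 0.882. CFL2, the muscle form on the high list, had 0.777 at its outer and 0.433 at its inner start. Inner starts of ACTN1, ACTN4, MYL12A, MYO18A and TPM3 also lay below 0.6, between 0.0579 at TPM3 and 0.331 at MYO18A. With the innermost start of every gene the median was 0.768 in high and 0.204 in low members. The GC content had a median of 70.3% in high and 47.7% in low members, against 66% and 52% over all listed symbols, so the motifs below, which differ in base composition, are not independent of it.

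**Figure D3:**
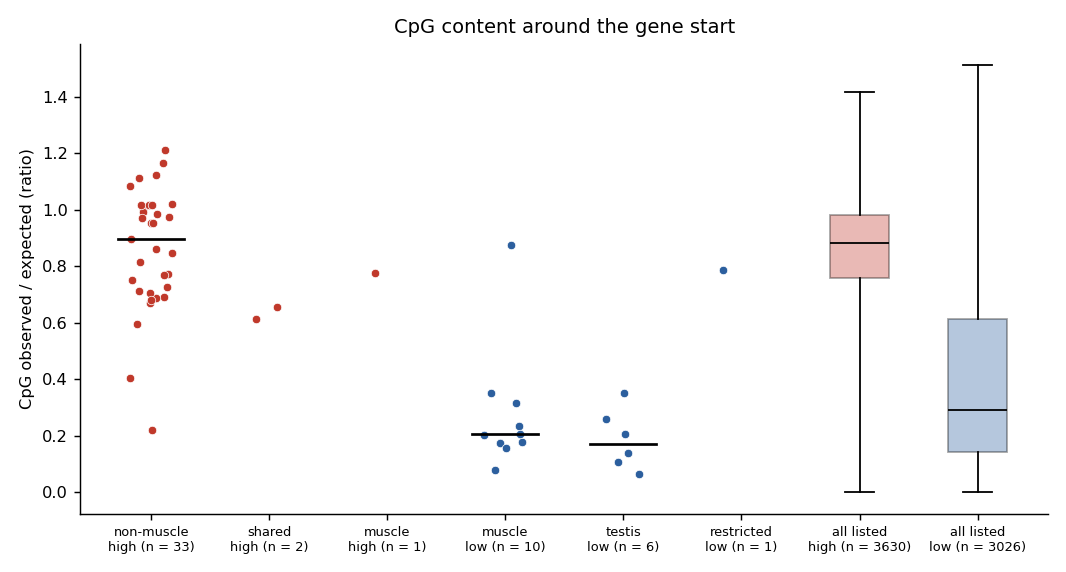
CpG observed over expected in 300 bases around the outermost RefSeq start of each member, by class and list, beside boxes for all listed symbols (median, quartiles, whiskers to the lowest and highest value). The 33 high non-muscle members have a median of 0.897, against 0.205 for the 10 low muscle members and 0.172 for the 6 low testis members, with the low genes MYL3 and MYO3A high.

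The contrast is visible in the bases themselves. The 150 bases upstream of the start are shown for the capping protein alpha subunits and for 3 myosin heavy chains, because each set holds relatives from both lists. Capitals mark every CG, and the number of them follows from the letters as 19 in CAPZA1, 25 in CAPZA2 and 0 in CAPZA3, and as 17 in MYH9, 10 in MYH10 and 0 in MYH8. The regions in GRCh38.p14 are chr1:112619682-112619831 on the plus strand, chr7:116862437-116862586 on the plus strand, chr12:18737969-18738118 on the plus strand, chr22:36387968-36388117 on the minus strand, chr17:8630726-8630875 on the minus strand and chr17:10421951-10422100 on the minus strand.
CAPZA1 (high): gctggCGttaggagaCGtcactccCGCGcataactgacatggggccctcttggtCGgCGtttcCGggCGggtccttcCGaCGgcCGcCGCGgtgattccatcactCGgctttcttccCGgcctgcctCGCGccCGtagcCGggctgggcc
CAPZA2 (high): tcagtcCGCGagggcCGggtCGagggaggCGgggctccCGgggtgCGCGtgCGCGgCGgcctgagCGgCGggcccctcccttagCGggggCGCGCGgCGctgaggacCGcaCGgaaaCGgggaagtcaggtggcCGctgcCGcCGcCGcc
CAPZA3 (low): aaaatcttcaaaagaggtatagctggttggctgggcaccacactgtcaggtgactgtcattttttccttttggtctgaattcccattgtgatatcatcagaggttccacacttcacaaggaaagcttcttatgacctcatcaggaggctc
MYH9 (high): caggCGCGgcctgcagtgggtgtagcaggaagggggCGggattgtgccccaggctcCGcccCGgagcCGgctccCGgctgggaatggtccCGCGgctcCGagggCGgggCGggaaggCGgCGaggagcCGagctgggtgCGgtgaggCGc
MYH10 (high): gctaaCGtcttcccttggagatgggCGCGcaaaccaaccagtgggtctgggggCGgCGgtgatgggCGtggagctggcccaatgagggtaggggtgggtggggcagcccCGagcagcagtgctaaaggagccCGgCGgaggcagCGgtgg
MYH8 (low): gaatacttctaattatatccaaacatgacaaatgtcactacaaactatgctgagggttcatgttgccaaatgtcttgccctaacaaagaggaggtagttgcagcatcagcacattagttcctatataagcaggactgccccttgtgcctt

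The letters TATAAA, the core of the TATA box that places the start in many tissue-specific genes, were searched on both strands. They occurred in 0 of 37 high members and 7 of 17 low members, against 3283 of all 27305 genes with a start in the table. Over listed symbols they occurred in 5.21% of the high and 20.4% of the low list. All 7 were muscle genes, 6 myosin heavy chains and the light chain MYL1, out of 10 low muscle members with a start. In MYH8 and MYL1 the letters lay only on the opposite strand, from position -186 in MYH8 and from -200 and -118 in MYL1. Members without a start, ACTB among them, were not searched for this or the motifs below. In MYH1, MYH2, MYH4, MYH13 and MYH6 the letters lay on the gene's strand between positions -40 and -20 from the start, a place they had in 2.52% of all starts and 8.36% of starts on the low list. The 60 bases upstream of these 5 starts are shown with TATAAA in capitals, since they share its position within a few bases. The regions are chr17:10518543-10518602 on the minus strand, chr17:10549659-10549718 on the minus strand, chr17:10469560-10469619 on the minus strand, chr17:10373007-10373066 on the minus strand and chr14:23408274-23408333 on the minus strand.
MYH1 (low): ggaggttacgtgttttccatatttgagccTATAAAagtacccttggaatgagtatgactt
MYH2 (low): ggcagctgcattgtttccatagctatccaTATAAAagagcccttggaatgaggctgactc
MYH4 (low): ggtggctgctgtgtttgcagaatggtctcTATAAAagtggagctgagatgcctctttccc
MYH13 (low): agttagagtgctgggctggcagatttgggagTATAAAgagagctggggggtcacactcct
MYH6 (low): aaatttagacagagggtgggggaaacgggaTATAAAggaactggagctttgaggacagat

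The CArG box, the site that the actin-controlled factor SRF binds in many cytoskeletal and muscle genes, reads the same on both strands. An exact match stood in the starts of 4 of 37 high members (10.8%) and 1 of 17 low members (5.88%), against 1.29% of all genes in the table, 0.937% of the high list and 1.75% of the low list. The high genes were ACTG1, FLNA, TPM4 and MYO1E, a class I myosin of membranes, and the low gene was ACTL9. In ACTG1 and FLNA the match lay at the same place, from position -94 to -85. With 1 mismatch allowed, 9 of 37 high members (24.3%) and 9 of 17 low members (52.9%) held a match, against 19.2% of all genes, so the order of the lists turned. Over all listed symbols the shares were then 14.1% of the high and 23.9% of the low list, in the same order. With innermost starts the match in TPM4 was no longer in the window. The stretches with an exact match are shown, 60 bases each with the CArG box in capitals, to let the matches and their surroundings be compared. The regions are chr17:81512860-81512919 on the minus strand, chrX:154374695-154374754 on the minus strand, chr19:16067338-16067397 on the plus strand, chr15:59372872-59372931 on the minus strand and chr19:8698906-8698965 on the minus strand.
ACTG1 (high): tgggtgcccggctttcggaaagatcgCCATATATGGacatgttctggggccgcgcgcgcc
FLNA (high): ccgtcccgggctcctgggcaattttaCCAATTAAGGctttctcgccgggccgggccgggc
TPM4 (high): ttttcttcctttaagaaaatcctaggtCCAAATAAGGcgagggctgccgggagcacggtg
MYO1E (high): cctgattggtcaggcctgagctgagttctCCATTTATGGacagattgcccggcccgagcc
ACTL9 (low): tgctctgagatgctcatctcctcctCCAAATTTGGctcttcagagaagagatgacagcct

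The GC-rich letters GGGCGG, the core of the site of the widely made factor SP1, were found on either strand in 34 of 37 high members (91.9%) and 3 of 17 low members (17.6%). Over listed symbols they occurred in 73.8% of the high and 29.3% of the low list, and in 44.5% of all genes. The low genes with them were MYL3, MYO3A and ACTRT2. The MEF2 site, bound by factors of muscle differentiation, was found on either strand in 0 high members and in 2 low members, MYH1 and MYH8, against 3.09% of all genes. In both it overlaps a TATAAA of the other strand, so these are not separate matches.

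**Figure D4:**
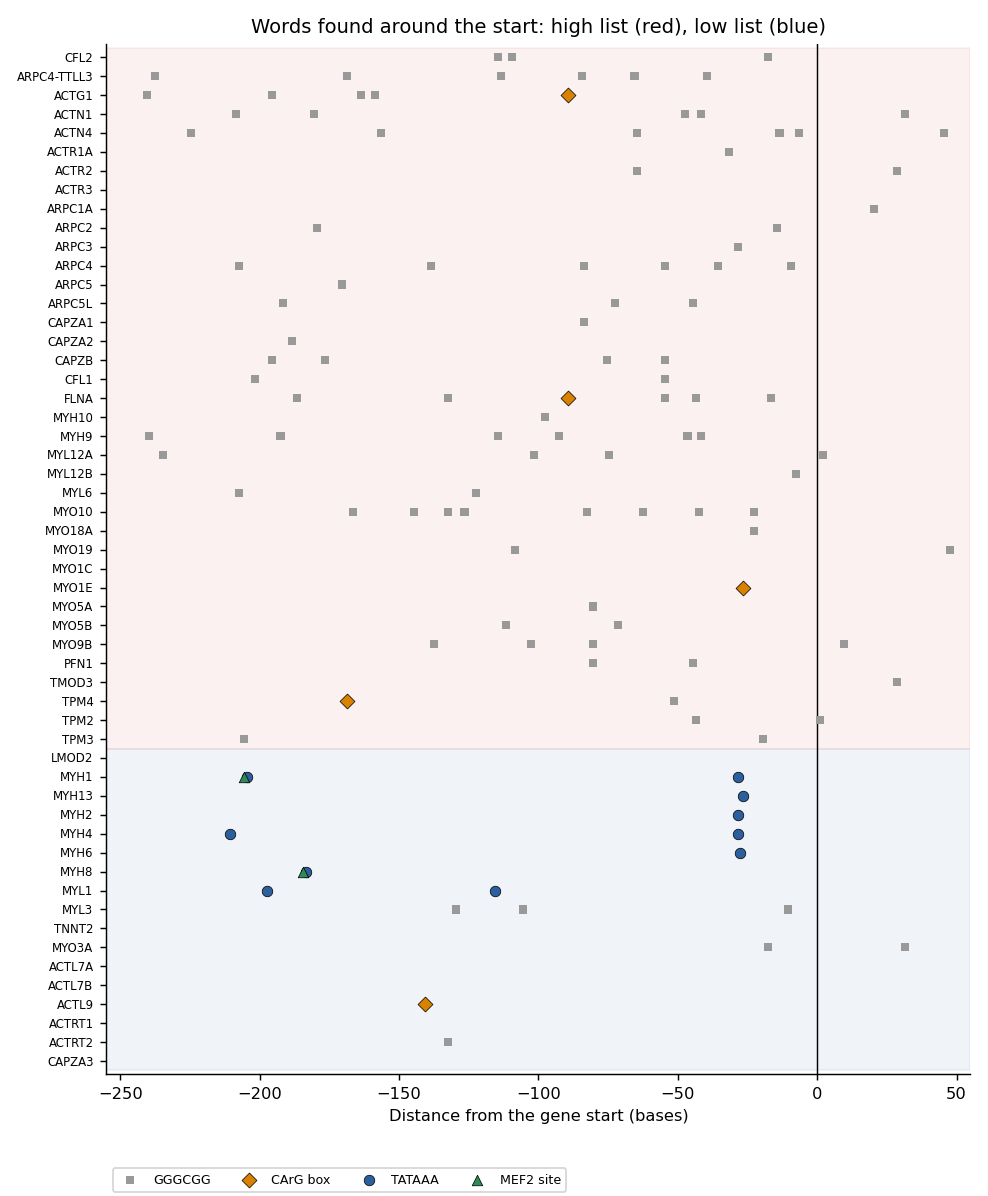
Place of each match relative to the gene start (bases, with 0 at the start) in 37 high members (red background) and 17 low members (blue background), 1 gene per line. Grey squares are GGGCGG, orange diamonds the CArG box, blue circles TATAAA and green triangles the MEF2 site, and 5 low heavy chains carry TATAAA between -40 and -20.

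Other genes of the actin and muscle systems, in 10 groups of 179 genes in all, were counted on the same lists. Over all of them 62 were high, 37 low and 80 on neither list. Of the listed ones 62.6% were high, against 50.6% of all listed symbols and 54.1% of listed coding genes. Groups with few listed genes, such as the formins and the SRF cofactors, say little beside those shares. Membrane and adhesion linkers gave 13 of 15 high and 0 low, including the ezrin family EZR, RDX and MSN and the focal adhesion proteins VCL, TLN1 and ZYX. Genes of severing, turnover and monomer binding gave 12 of 25 high and 0 low, including GSN, DSTN, WDR1 and the thymosins TMSB4X and TMSB10. Bundlers and spectrins gave 8 of 20 high, including FSCN1, PLS3 and SPTAN1. Calponins and other tropomyosin partners gave 6 high, including CALD1 and TAGLN2, and 1 low, the smooth muscle gene CNN1, of 11.

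Genes that start filaments or activate ARP2/3 held more low genes than the groups above. Those that set the motor's activity held 1, as the calponins did. WASP and WAVE activators of ARP2/3 gave 8 high, including WASL, WASF2 and CTTN, and 2 low, NCKAP1L of blood cells and ABI3, of 21. Formins and other nucleators gave 6 high, including DIAPH1 and INF2, and 3 low, DIAPH2, DAAM2 and FMN2, of 17. The enzymes that set the phosphorylation of the myosin light chain gave 6 high and 1 low of 15. The catalytic phosphatase subunits PPP1CA, PPP1CB and PPP1CC and the myosin-targeting subunit PPP1R12A were high, and the kinase MYLK was on neither list. Of the phosphatase inhibitors PPP1R14A was low, PPP1R14B high and PPP1R14C on neither list. Of SRF and its cofactors, MKL1 and MKL2, which carry the actin signal to the nucleus, were high, MYOCD of smooth and cardiac muscle was low, and SRF was on neither list.

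Muscle groups stood on the other side. Sarcomere scaffold genes gave 0 high and 17 low of 33, including MYBPC1, MYBPC2, MYBPC3, DES and XIRP1, while TTN and NEB were on neither list. Muscle transcription factors gave 11 low of 18, including MYOD1, MYF5, MYF6 and MYOG, which start the skeletal muscle programme, and 1 high, MEF2A. Among markers of cell types, the list for squamous epithelium, the labelled origin of SiHa, gave 5 high and 1 low of 10. KRT7, KRT8 and KRT18, keratins of simple epithelium, were high with KRT17 and DSP, while the basal squamous keratin KRT5 was low. TP63, a factor of basal squamous cells, was on neither list, as were KRT19, CDH1 and EPCAM. Striated muscle markers gave 0 high and 5 low of 10, testis markers 0 high and 5 low of 6, and blood markers 0 high and 4 low of 4. Smooth muscle markers gave SMTN and SYNM high and MYOCD, CNN1 and DES low, endothelial markers 0 high and 2 low of 4, and fibroblast markers 0 high and 2 low of 4.

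**Figure D5:**
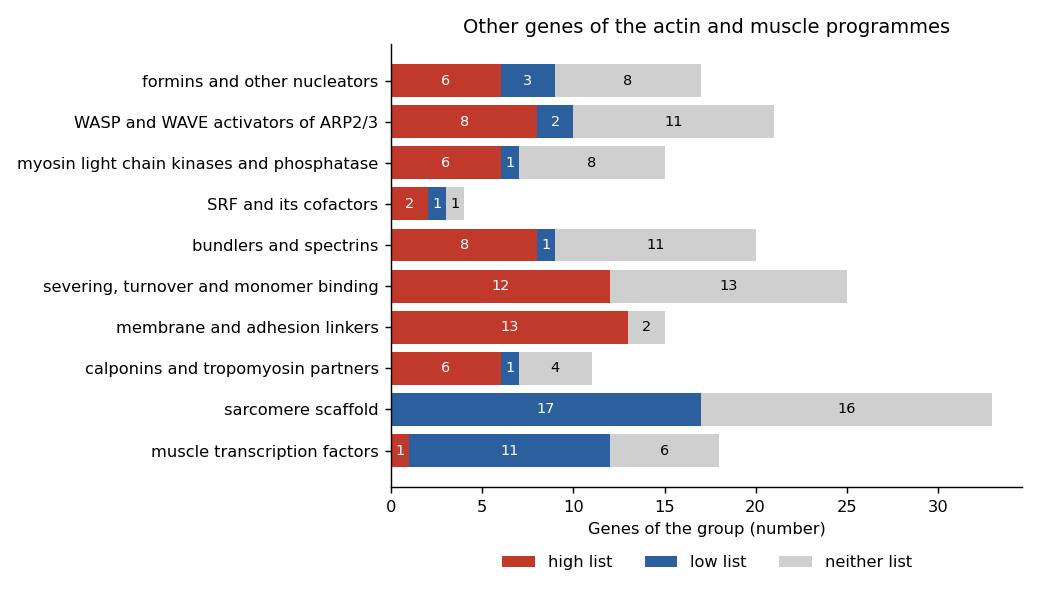
Number of genes of 10 further groups of the actin and muscle systems on the high list (red), the low list (blue) and neither list (grey). Membrane and adhesion linkers show 13 high and 0 low, and sarcomere scaffold genes 0 high and 17 low.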

How the data were processed

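RNA-seq libraries of migrated and non-migrated SiHa cells were made with a TruSeq kit, per the labels' protocols. The tools in the submitters' processing notes are Cuffdiff, Cufflinks 2.2.1, TopHat2 and CASAVA 1.8.2, with the build hg19 and neither order nor settings. The labels and headers state no annotation, strand setting or read length. The deposited estimated counts are the fragments Cuffdiff assigned to each locus and library, per the file headers, and served here only for depth (not rounded, 3.31% of nonzero values not whole). Row names in that table do not match single labelled samples, so depth is given over all 6 libraries.

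The high list held 4531 symbols in as many rows and the low list 4419 in 4436 rows, and 4 symbols on both were left out. Members were taken by symbol, classes and further gene groups from textbook roles. The members and lists were chosen with earlier results of these data known. Any classed member could be named. With no values per library no test was run, so counts and medians stand beside those of all listed symbols. Starts came from RefSeq (GRCh38.p14) and transcripts from GENCODE 29, matched by symbol. Coding sequences were aligned globally with Biopython 1.88 (Python 3.11.15), choosing the principal, then longest, transcript. Word searches were tested on simulated data. Within ARP2/3 and the unconventional myosins, 7 chosen pairs were aligned, and all pairs elsewhere. Some members and 1 further gene group are not reported here.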

Additional observations from a re-analysis of the deposited data

How the results depend on the processing

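No paired analysis was possible because the results come from lists with no values per library, and leaving out a library could not give a value for the same reason. Migrated and non-migrated cells were not compared, because assembly IDs carry no symbols. With the core filament and motor families alone, 19 members were high and 17 low, against 45 and 26, since fewer families are counted. The share of muscle members on the high list was then 0%, against 5.88%, because CFL2 falls outside those families, and the testis class had no listed member. The share of all listed symbols on the high list was 54.1% among protein-coding genes and 54.4% without olfactory receptor, keratin associated, beta defensin and LINC symbols, against 50.6%. The share of high members with a CArG box less that of low members was 4.93 percentage points with an exact match and -28.6 points with 1 mismatch allowed, and the cause was not tested. With innermost starts this difference was 2.23 points. The other alternative values kept their direction, with counts within 1.5 times the value reported and shares within its exact binomial interval at 95%, which covers counting error only. The difference in median CpG ratio was 0.641, and 0.564 to 0.618 under its alternatives, and the ratio of median spans was 2.08, and 1.57 to 2.05. The innermost start, and gene length without testis or non-coding members, were chosen after seeing the data. Counting tissue-restricted genes as non-muscle gave 95.2% on the high list, and counting shared genes as muscle gave 15.8%.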
